A study of Mus musculus with 4 samples.

Results

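The BCL2 family of cell survival and cell death genes and the mitophagy receptors Bnip3 and Bnip3l were examined in tumors formed by Lewis lung carcinoma (LLC) cells that the labels give as expressing chemerin or not. The 10 genes were taken by name from a deposited table of 47729 genes. They were the pro-survival genes Bcl2, Bcl2l1 and Mcl1, the pore-forming genes Bax and Bak1, the BH3-only genes Bid, Bcl2l11 and Bbc3, and Bnip3 and Bnip3l. LLC cells are a mouse carcinoma line of the C57BL/6 strain. They were grafted under the skin of the back of C57BL/6 mice, and the tumors were collected on day 5. The tumors called LLC-Chem came from cells transfected with a pEFIN plasmid. It encodes chemerin from residue 1 to residue 157, a form that is active without further processing. The tumors called LLC came from cells that the labels give as wild type, while the study also describes cells that received the vector alone. Individual clones were collected after selection of the transfected cells, and each library was made from a pool of 3 tumors, with 2 pools per group. Unless stated otherwise, mice were 6 to 10 weeks old, and animals of an experiment were matched for age.

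Cells of the host contribute RNA to such tumors, so that fewer cells of a type and less RNA per cell cannot be told apart. Library totals, inferred from the spacing of the values, ran from 28470000 to 33990000 reads. Rarres2, which encodes chemerin, was at 102 and 98.2 RPM, the read count scaled to the size of the library, in the LLC pools and at 106 and 106 RPM in the LLC-Chem pools, and it was not called (log2 change 0.08, limma adjusted p = 0.541). Both LLC-Chem pools lay above both LLC pools, but by so little that the level of Rarres2 does not settle the labels, by which the groups are named here. Among 7 markers of lung carcinoma and epithelial cells, Krt8 and Krt18 ranged from 82.8 to 167 RPM, Krt19 from 2.10 to 15.3 RPM, Epcam, Cdh1 and Sftpc were below a mean of 1 RPM, and Nkx2-1 was at 0 in the 4 pools. The summed level of 8 leukocyte and macrophage markers ranged from 4154 to 7184 RPM in LLC and from 1713 to 3377 RPM in LLC-Chem tumors, with 4 of the 8 tested called lower and none of them at 0. That of 6 neutrophil markers ranged from 111 to 181 RPM and from 17.3 to 42.5 RPM, with 3 of 4 tested called lower. That of 6 endothelial markers ranged from 147 to 215 RPM and from 26.4 to 48.8 RPM, with 6 of 6 called lower, and that of 4 pericyte markers from 116 to 150.3 RPM and from 33.2 to 50.6 RPM, with 3 of 4 called lower. Of 6 T and NK cell markers 3 were tested and 2 called lower, and their sum ranged from 12.1 to 15.1 RPM and from 0.85 to 2.95 RPM. Of 5 fibroblast markers 1 was called higher and 2 lower, and their sum ranged from 11800 to 20339 RPM and from 6870 to 8559 RPM. The adipocyte marker Cfd (1.40 and 1.40 RPM in LLC against 15.1 and 4.10 RPM) and the muscle marker Tnnt3 were called higher. Ckm and Myh4 of muscle were at 0. Adipoq (log2 change 0.87) and Fabp4 (-0.67) of adipocytes overlapped between the groups, as did the adipocyte sum, and were not called. Plin1 of adipocytes and Acta1 and Mylpf of muscle were below a mean of 1 RPM and were not tested. The mean of Plin1 was higher in LLC-Chem tumors, and those of Acta1 and Mylpf were lower. The sum of 5 erythroid markers was 143 RPM in the first and 4.25 RPM in the second LLC-Chem pool, against 115 and 46.1 RPM in LLC. The part of these cells in the differences described here was not tested.

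BCL2 family proteins decide whether the outer membrane of the mitochondrion is opened during apoptosis. BAX and BAK form the pores, the pro-survival proteins hold them in check, and BH3-only proteins carry stress signals that either block the pro-survival proteins or switch on the pore formers. BNIP3 and BNIP3L, the latter also called NIX, sit on the same membrane, are known as targets of hypoxia-inducible factors (HIF) and mark mitochondria for removal by autophagy.

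The mitophagy receptors Bnip3 and Bnip3l rose in LLC-Chem tumors, and 4 of the other 8 genes fell. By limma, 2 of the 10 genes were called higher in LLC-Chem tumors, Bnip3 and Bnip3l, against 9.54% of all 13694 genes tested. Another 4 were called lower, Bcl2l1, Mcl1, Bax and Bid, against 13.5% of all genes tested. The test was made on log2(RPM + 0.5) for genes whose mean reached 1 RPM, which all 10 genes passed, and calls were made at an adjusted p under 0.05. In 10 of the 10 genes the pools of the groups did not overlap, as in 72.5% of all genes tested, with 3 genes higher in both LLC-Chem pools and 7 lower in both, an order that 33.1% and 39.3% of all genes tested showed. The median log2 fold change was -0.36 over the 10 genes and -0.04 over all genes tested. Each gene was covered by 353 to 12725 reads per pool, and the pools of a group differed from each other by at most 1.41 times. Since 2 pools stood against 2, the smallest p that an exact permutation test of 1 gene can give is 0.33. The p-values given here rest on the spread between these pools, which limma moderates towards a trend fitted over all genes tested. No spread between transfected clones can be read from them. When 1 pool was left out, any of the 4, the 10 genes could not change direction, because their pools did not overlap between the groups. Without a trend in limma's eBayes, the calls of Bcl2l1, Mcl1 and Bax were lost (limma adjusted p = 0.0539, 0.0579 and 0.0704), while those of Bid, Bnip3 and Bnip3l held (0.0376, 0.0305 and 0.0379). When all genes above 0 in any pool entered the fit, limma called 0 of the 10 genes, with 9 of the 10 at an unadjusted p under 0.05. edgeR's quasi-likelihood test and DESeq2, on recovered reads, each called 2 of the 10 genes higher and 4 lower.

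**Figure D1:**
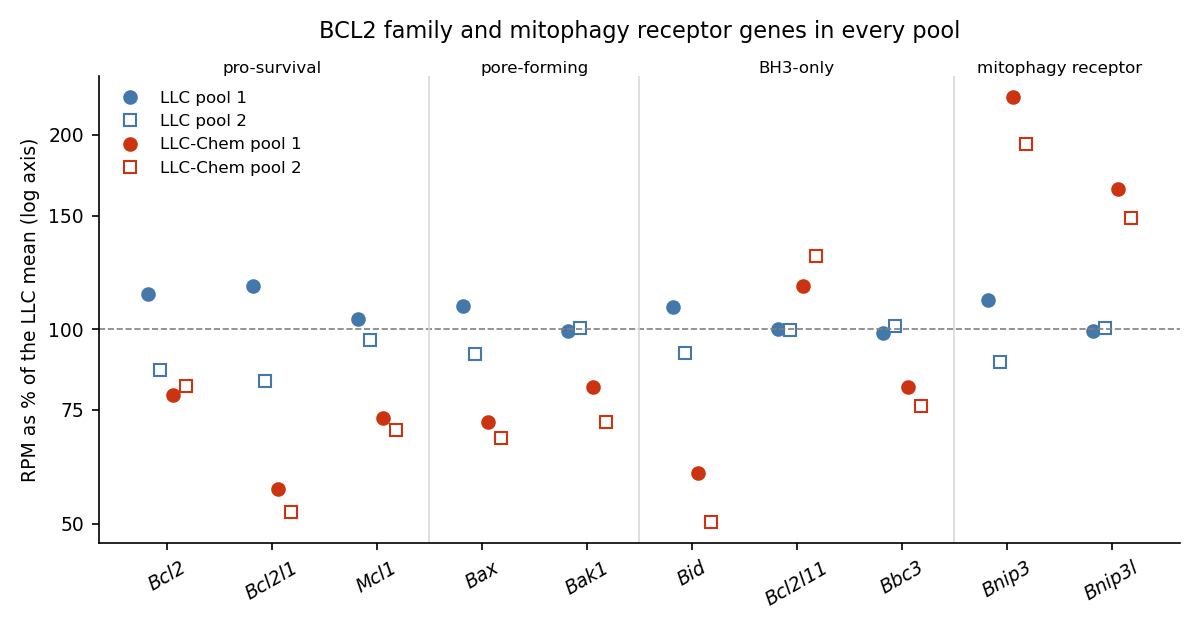
RPM of the 10 genes in each of the 4 pools as a percentage of the mean of the LLC pools (vertical log axis), with genes on the horizontal axis grouped by role. Blue marks are LLC and red marks LLC-Chem pools, filled for pool 1 and open for pool 2. The red marks lie above both blue marks for Bcl2l11, Bnip3 and Bnip3l and below both for the other 7 genes.

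Bnip3 (ENSMUSG00000078566, chromosome 7 of GRCm38, 138890836 to 138909519, minus strand) had the largest change of the group. It was at 154 and 123 RPM in the LLC pools and at 317 and 269 RPM in the LLC-Chem pools. Both LLC-Chem pools thus had more than both LLC pools, and the lowest LLC-Chem value lay far above the highest LLC value. The mean went from 139 ± 21.6 RPM to 293 ± 34.3 RPM (SD, n = 2), or 2.11-fold, with a log2 change of 1.08 (SE 0.15, limma adjusted p = 0.0144). Bnip3l (ENSMUSG00000022051, chromosome 14, 66985239 to 67008877, minus strand) was at 139 and 140.5 RPM in the LLC pools and at 230.3 and 208 RPM in the LLC-Chem pools. The LLC pools were nearly equal and both LLC-Chem pools lay above them. Its mean rose from 139.8 ± 0.953 RPM to 219 ± 15.8 RPM (SD, n = 2), or 1.57-fold, with a log2 change of 0.65 (SE 0.10, limma adjusted p = 0.0173). The study listed Bnip3l among 29 hypoxia genes chosen on these samples, so its rise is not independent evidence of a hypoxia signature. Some reads of both genes cannot be assigned with certainty. In Bnip3, 16.5% of the 50-base words of its transcripts also occurred in another gene, most often in Gm16439, which had a mean of 3.30 RPM. In Bnip3l it was 20.8%, most often in Bnip3l-ps, with a mean of 1.01 RPM. In Bnip3, 22.3% of the exon bases also lie under exons of Gm45507 on the opposite strand, and whether counting used strand was not given in the sources used here.

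The promoter of Bnip3 is shown because HIF binds a short core sequence, and that of Bcl2l11 because it held the core bound by FOXO factors, which are known to regulate this gene. The 250 bases before the annotated start were taken from RefSeq on GRCm38.p6, which matched 9 of the 10 genes in 14 windows. Bnip3l was not among them. Capitals mark ACGTG and GCGTG, forms of the HIF core, and GTAAACA, the FOXO core, each searched on both strands. GCGTG on the opposite strand reads CACGC in the lines given. The Bnip3 window is chr7:138909507-138909756 on the minus strand and the Bcl2l11 window shown chr2:128125788-128126037 on the plus strand. Another Bcl2l11 window, chr2:128127325-128127574, held none of these core sequences and is not shown.
Bnip3: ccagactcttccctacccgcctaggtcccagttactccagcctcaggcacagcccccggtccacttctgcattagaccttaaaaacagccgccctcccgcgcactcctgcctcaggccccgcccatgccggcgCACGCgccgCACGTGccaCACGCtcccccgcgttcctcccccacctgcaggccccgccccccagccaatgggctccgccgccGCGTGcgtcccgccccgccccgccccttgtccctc
Bcl2l11: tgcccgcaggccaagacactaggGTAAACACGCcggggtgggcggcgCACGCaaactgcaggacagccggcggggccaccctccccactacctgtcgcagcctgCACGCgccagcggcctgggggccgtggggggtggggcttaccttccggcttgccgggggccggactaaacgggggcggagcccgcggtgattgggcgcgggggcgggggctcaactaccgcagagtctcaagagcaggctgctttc
In Bnip3 the letters CACGTG, which hold ACGTG on both strands, began 108 bases before the start, with CACGC at 117 and 99 bases and GCGTG at 35 bases before it. In Bcl2l11 GTAAACA began 227 bases before the start and overlapped with the first of 3 CACGC, at 222 bases. ACGTG on either strand was present in 3 of the 14 windows, of Bnip3, Bax and Bbc3, and in 16.6% of all 32817 promoter windows of this length. GCGTG was present in 6 of the 14 windows and in 28.1% of all windows, and GTAAACA in 2 of the 14 windows, of Bcl2l11 and Bbc3, and in 3.16% of all windows. Matches to such short letters are a description and do not show binding.

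Among the pro-survival genes, Bcl2l1 and Mcl1 fell and Bcl2 was not called. Bcl2l1 (ENSMUSG00000007659, chromosome 2, 152780668 to 152831728), which encodes BCL-XL, was at 101 and 71.8 RPM in the LLC pools and at 48.9 and 45.1 RPM in the LLC-Chem pools. The LLC pools lay apart, but both were above the LLC-Chem pools, which were close together. The mean of the LLC-Chem pools was 54.5% of that of LLC (log2 change -0.85 with SE 0.18, limma adjusted p = 0.0296). The log2 fold change was between -0.61 and -1.09 when 1 pool was left out, with -0.61 without the first LLC pool. Mcl1 (ENSMUSG00000038612, chromosome 3, 95658788 to 95663176), which encodes a short-lived protein on which many cells depend, was at 412 and 382 RPM in the LLC pools and at 289 and 277 RPM in the LLC-Chem pools. Pools of the same group differed little, and the mean fell to 71.3% of that of LLC (log2 change -0.49 with SE 0.11, limma adjusted p = 0.0318). Bcl2 (ENSMUSG00000057329, chromosome 1, 106538178 to 106714274), the founding member of the family, was at 33.0 and 25.2 RPM in the LLC pools and at 23.0 and 23.8 RPM in the LLC-Chem pools. The second LLC pool was close to the LLC-Chem pools, and the log2 fold change of -0.30 had a 95% interval from -0.70 to 0.11 (limma adjusted p = 0.22). Without the first LLC pool the value was -0.10, and without the second it was -0.49.

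Of the pore-forming genes, Bax was called lower and Bak1 was not called. Bax (ENSMUSG00000003873, chromosome 7, 45461697 to 45466898) was at 132 and 111 RPM in the LLC pools and at 87.4 and 82.6 RPM in the LLC-Chem pools. The highest LLC-Chem value was below the lowest LLC value, and the mean fell to 69.8% of that of LLC (log2 change -0.51 with SE 0.12, limma adjusted p = 0.0362). Bak1 (ENSMUSG00000057789, chromosome 17, 27019810 to 27029009) was at 60.8 and 61.4 RPM in the LLC pools and at 49.7 and 43.9 RPM in the LLC-Chem pools. The pools did not overlap, but with a log2 fold change of -0.38 (95% interval from -0.66 to -0.11) it missed the threshold (limma adjusted p = 0.0571). In Bak1, 25.5% of the exon bases lie under exons of Ggnbp1 on the opposite strand, and in Bax 12.2% lie under Gm45808 on the same strand.

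Of the 3 BH3-only genes, Bid was called lower and Bcl2l11 and Bbc3 were not called. Bid (ENSMUSG00000004446, chromosome 6, 120891930 to 120916853), whose protein is cut by caspase-8 and carries death receptor signals to mitochondria, was at 28.0 and 23.8 RPM in the LLC pools and at 15.5 and 13.0 RPM in the LLC-Chem pools. Both LLC-Chem pools were clearly below both LLC pools. The mean fell to 55.1% of that of LLC (log2 change -0.84 with SE 0.16, limma adjusted p = 0.0255), and 17.7% of its exon bases lie under exons of Bcl2l13 on the opposite strand. Bcl2l11 (ENSMUSG00000027381, chromosome 2, 128126038 to 128162547), which encodes BIM, was at 58.5 and 58.2 RPM in the LLC pools and at 68.1 and 75.8 RPM in the LLC-Chem pools. It was the only one of the BCL2 family genes among the 10, leaving aside Bnip3 and Bnip3l, that was higher in both LLC-Chem pools. Its log2 change of 0.30 had a 95% interval from 0.04 to 0.56 and missed the threshold (limma adjusted p = 0.0908). Bbc3 (ENSMUSG00000002083, chromosome 7, 16308393 to 16318205), which encodes the p53 target PUMA, was at 13.7 and 14.0 RPM in the LLC pools and at 11.3 and 10.5 RPM in the LLC-Chem pools. Its pools did not overlap, and its log2 fold change of -0.33, with a 95% interval from -0.70 to 0.03, was not called (limma adjusted p = 0.145).

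**Figure D2:**
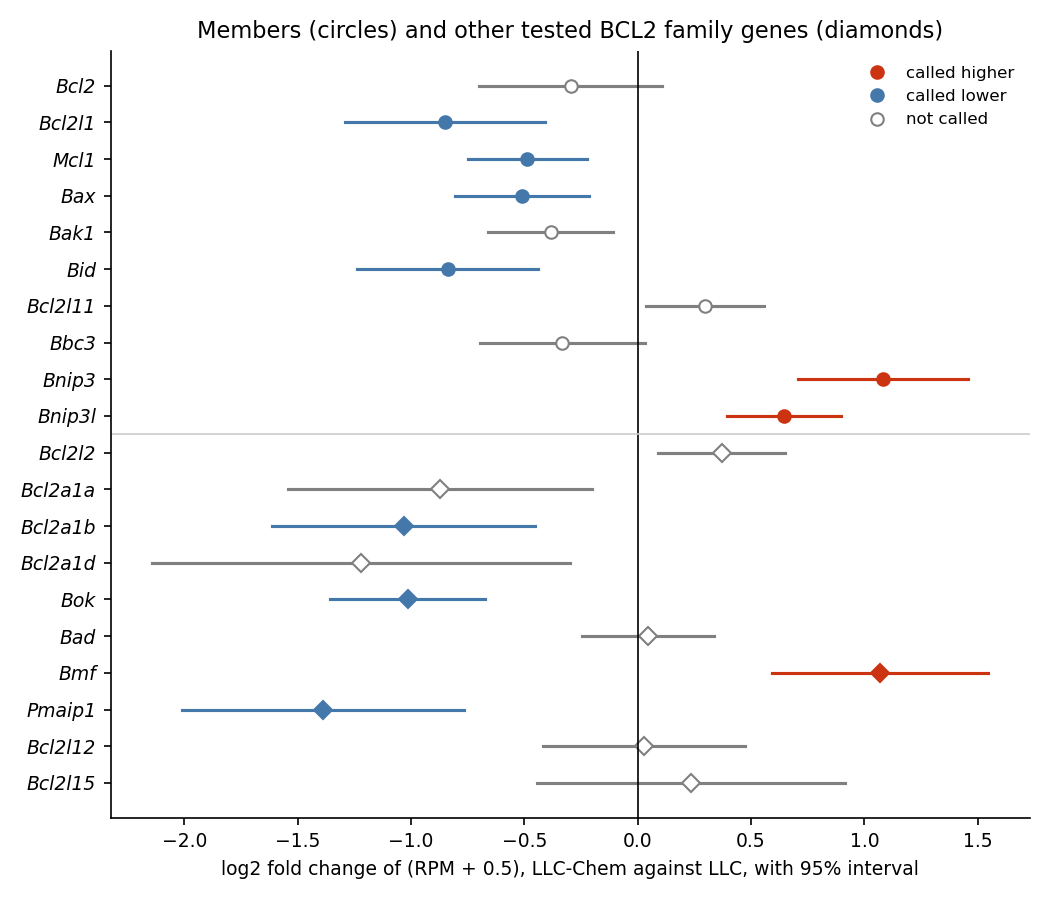
Log2 fold change of (RPM + 0.5) in LLC-Chem against LLC tumors (horizontal axis) with the 95% interval from limma as bars, for the 10 genes (circles) and 10 other tested BCL2 family genes (diamonds). Red marks were called higher, blue marks lower and open grey marks were not called. Bnip3, Bnip3l and Bmf lie to the right of 0 as called genes, and Pmaip1 lies farthest to the left.

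Of 14 further BCL2 family genes, 10 were tested, and 1 was called higher and 3 lower by limma, where 9.54% and 13.5% of all genes tested were, so that the number called higher was near the background. Their median log2 fold change was -0.42. Over other scalings, pseudocounts, no trend, edgeR, DESeq2 and the stricter filter, 1 to 2 of them were called higher and 2 to 4 lower. Bmf, a BH3-only gene, was at 13.1 and 18.7 RPM in the LLC pools and at 34.2 and 32.8 RPM in the LLC-Chem pools (log2 change 1.07 with SE 0.19, limma adjusted p = 0.0222). Its LLC-Chem pools were both far above the LLC pools. Pmaip1, which encodes NOXA, a BH3-only protein that binds MCL1, was at 23.1 and 16.6 RPM in the LLC pools and at 8.65 and 5.95 RPM in the LLC-Chem pools (log2 change -1.39 with SE 0.25, limma adjusted p = 0.0225). Bok, a relative of Bax and Bak1, was at 61.5 and 52.9 RPM in the LLC pools and at 30.1 and 25.9 RPM in the LLC-Chem pools (log2 change -1.01 with SE 0.14, limma adjusted p = 0.0139). For both Pmaip1 and Bok the LLC-Chem pools lay below the LLC pools. The pro-survival Bcl2a1 genes, which are known from leukocytes, were weakly expressed. Bcl2a1b was called lower (log2 change -1.03, limma adjusted p = 0.0344), and Bcl2a1a and Bcl2a1d missed the threshold at -0.87 and -1.22 (adjusted p = 0.0672 and 0.0644). These copies are so alike that 69.0% to 79.5% of their 50-base words occur in another gene, so that their reads cannot be told apart with certainty. The leukocyte markers described above were lower as well, and their part was not tested. Bcl2l2, which encodes the pro-survival BCL-W, was higher in each LLC-Chem pool than in either LLC pool without being called (log2 change 0.37, 95% interval from 0.09 to 0.65, limma adjusted p = 0.0644). Bad, Bcl2l12 and Bcl2l15 overlapped between the groups, with log2 fold changes of 0.05, 0.03 and 0.23 that were not called (limma adjusted p = 0.788, 0.915 and 0.546). Bcl2l10, Bik, Hrk and Bcl2l14 were below a mean of 1 RPM and were not tested.

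Levels of different genes were compared per kb of annotated exon. In LLC tumors Mcl1 was the most abundant of the 10, at 116 ± 6.29 RPM per kb (SD, n = 2), followed by Bax at 77.2 ± 9.26, Bnip3 at 61.2 ± 9.55 and Bnip3l at 36.2 ± 0.247 RPM per kb. The pools of Bax and Bnip3, 70.7 to 83.8 and 54.5 to 68.0 RPM per kb, were close to each other. Below them came Bak1 at 25.4 ± 0.176, Bcl2l1 at 18.8 ± 4.48, Bid at 7.31 ± 0.836, Bcl2l11 at 7.27 ± 0.0264, Bbc3 at 6.53 ± 0.116 and Bcl2 at 3.18 ± 0.602 RPM per kb. Bid and Bcl2l11 were not ordered beyond their spread, since the range of Bid, 6.71 to 7.90 RPM per kb, covered that of Bcl2l11, and Bbc3 lay just below both. In LLC-Chem tumors Bnip3, at 129 ± 15.2 RPM per kb (SD, n = 2), stood above Mcl1, at 82.9 ± 2.47 RPM per kb, in both pools. Bnip3l at 56.8 ± 4.08 and Bax at 53.9 ± 2.15 RPM per kb followed and overlapped. Bak1 at 19.4 ± 1.70 and Bcl2l1 at 10.2 ± 0.593 came next, then Bcl2l11 at 8.96 ± 0.678, Bbc3 at 5.14 ± 0.249 and Bid at 4.03 ± 0.498 RPM per kb. Bid, level with Bcl2l11 in LLC tumors, was below it in both LLC-Chem pools, and Bcl2, at 2.56 ± 0.0618 RPM per kb, was lowest in both groups. With the length of the longest transcript in place of all exons, Bax stood above Bnip3l in both LLC-Chem pools, at 77.2 and 67.3 RPM per kb on average. With that length Bax, at 120.03 and 101 RPM per kb, overlapped with Mcl1, at 121 and 112 RPM per kb, in the LLC pools. Bcl2l1, at 39.3 and 27.9 RPM per kb, also stood above Bak1, at 25.5 and 25.7 RPM per kb, in the LLC pools, and both genes overlapped in the LLC-Chem pools, so their order rests on the length used. Bid was then below Bcl2l11 in LLC tumors on average, at 10.7 and 11.6 RPM per kb, and their pools still overlapped.

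**Figure D3:**
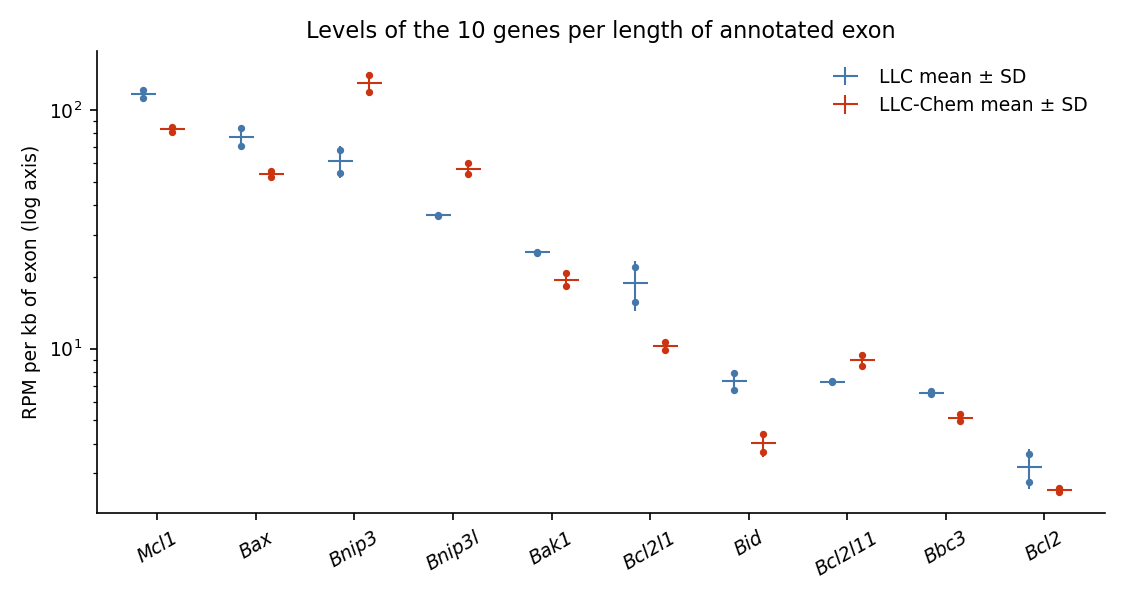
RPM per kb of annotated exon (vertical log axis) of the 10 genes, ordered by their level in LLC tumors. Dots are pools, horizontal dashes group means and bars the SD of 2 pools, in blue for LLC and red for LLC-Chem. Mcl1 is highest in LLC at 116 and Bnip3 highest in LLC-Chem at 129 RPM per kb.

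Ratios of 2 genes within a pool do not depend on how the pools were scaled. They were chosen with the values of the genes known and carry no test. The ratio of Bcl2l11 to Bcl2l1, in RPM, was 0.580 and 0.811 in the LLC pools and 1.39 and 1.68 in the LLC-Chem pools, or 2.23-fold higher. That of Bcl2l11 to Mcl1 went from 0.142 and 0.152 to 0.235 and 0.273, and that of Bcl2l11 to Bcl2 from 1.77 and 2.31 to 2.95 and 3.18. Relative to each of the 3 pro-survival genes, Bcl2l11 thus stood higher in both LLC-Chem pools, although Bcl2l11 itself was not called and Bcl2l1 and Mcl1 were called lower. The ratio of Bbc3 to Bcl2l1 was also higher, at 0.231 and 0.234 against 0.136 and 0.196 in the LLC pools. That of Bid to Bax was lower, at 0.178 and 0.158 against 0.212 and 0.214 in the LLC pools. Bax and Mcl1, by contrast, kept close to each other. Their ratio was 0.320 and 0.292 in the LLC pools and 0.302 and 0.298 in the LLC-Chem pools, and the groups overlapped. The ratio of Bak1 to Mcl1 also overlapped, at 0.147 and 0.161 against 0.172 and 0.158. The ratio of Bax to Bcl2 was 4.0 and 4.41 in the LLC pools and 3.79 and 3.46 in the LLC-Chem pools, whereas that of Bax to Bcl2l1 was 1.31 and 1.55 against 1.79 and 1.83. Against Bcl2 the pore former was thus lower in LLC-Chem tumors, and against Bcl2l1 higher. Bnip3 stood higher relative to Bnip3l in the LLC-Chem pools, with ratios of 1.38 and 1.29 against 1.11 and 0.878.

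**Figure D4:**
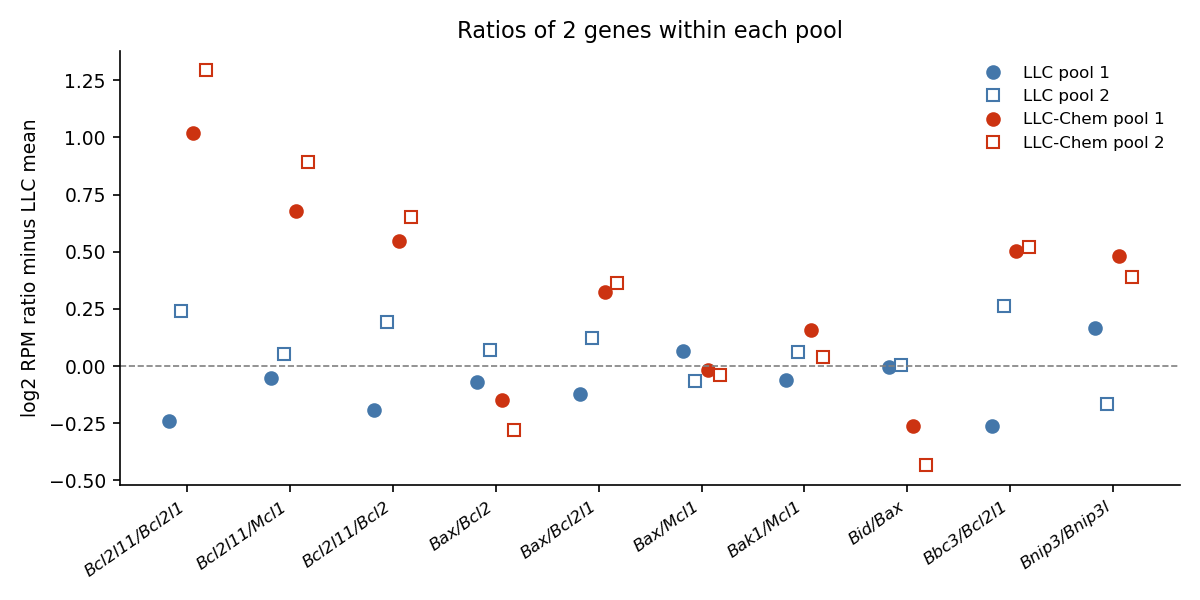
Log2 of the RPM ratio of 2 genes within each pool, minus the mean of the LLC pools (vertical axis), for 10 pairs (horizontal axis, numerator before denominator). Blue marks are LLC and red marks LLC-Chem pools, filled for pool 1 and open for pool 2. The 3 ratios of Bcl2l11 lie above the LLC pools, and those of Bax to Mcl1 and Bak1 to Mcl1 overlap between the groups.

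The pathways around the 10 genes were described through 7 more lists. Among 18 HIF target genes other than the members, 10 were called higher and 0 lower by limma, where 9.54% and 13.5% of all genes tested were. An unadjusted p under 0.05 was found for 14 of the 18, and 17 were higher in both LLC-Chem pools, against 33.1% of all genes tested. Their median log2 fold change was 0.72, near that of Bnip3l and below that of Bnip3. The largest were Adm, which encodes adrenomedullin (log2 change 1.65, limma adjusted p = 0.00665), Kdm3a, a histone demethylase (1.23, adjusted p = 0.0105), and Ankrd37 (1.20, adjusted p = 0.0172). Of these 18 genes 7 are on the hypoxia list that the study chose on these samples and are not independent evidence of its direction. Among the other 11 genes, 4 were called higher, against the same 9.54%, and the median log2 fold change was 0.41. Of 12 p53 target genes other than the members, 6 were called lower, against 13.5% of all genes tested, and 0 higher. Of the 12, 7 had an unadjusted p under 0.05 and 10 were lower in both LLC-Chem pools, against 39.3% of all genes tested. Their median log2 fold change was -0.53. Trp53inp1 (-1.19, limma adjusted p = 0.0238), Cdkn1a, the cell cycle inhibitor p21 (-1.15, adjusted p = 0.0117), and Ccng1 (-1.13, adjusted p = 0.0126) were the largest, and Bax, Bbc3 and Pmaip1 are textbook targets of p53 as well. edgeR and DESeq2 also called 0 HIF targets lower and 0 p53 targets higher.

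Of 13 tested transcription factor genes known to regulate members, 1 was called higher and 1 lower, where 9.54% and 13.5% of all genes tested were. Over other scalings, pseudocounts, no trend, edgeR, DESeq2 and the stricter filter, 1 to 3 were called higher and 1 lower. The gene called higher was Arnt, the partner subunit of HIF (log2 change 0.63, limma adjusted p = 0.0185). It was at 77.2 and 84.5 RPM in LLC and at 121 and 129.7 RPM in the LLC-Chem pools. Epas1, which encodes the HIF-2 alpha subunit and is abundant in endothelial cells, was called lower, with 31.7 and 19.7 RPM in LLC against 9.64 and 6.95 RPM in the LLC-Chem pools (log2 change -1.56, limma adjusted p = 0.0222). The endothelial markers, 6 of 6 called lower, moved with it, and their part was not tested. Hif1a, Trp53 and Foxo3 were named after their values were seen and were not called (log2 fold changes of -0.09, -0.13 and 0.30, limma adjusted p = 0.699, 0.385 and 0.0775). Downstream of the pore, 1 of 19 genes of mitochondrial release, the apoptosome and caspases was called higher and 4 lower, where 9.54% and 13.5% of all genes tested were, with a median log2 fold change of -0.18. Without a trend 2 were called lower. Birc2, which encodes the inhibitor cIAP1, rose, with 38.8 and 33.5 RPM in LLC against 55.6 and 69.6 RPM in the LLC-Chem pools (log2 change 0.78, limma adjusted p = 0.026). Birc5, the mitotic protein survivin, fell, with 110 and 80.2 RPM in LLC against 52.9 and 43.4 RPM in the LLC-Chem pools (log2 change -0.96, limma adjusted p = 0.0257). Of 9 tested genes of the death receptor pathway, Casp8, whose product cuts BID, was the 1 called, a share near the 13.5% of all genes tested that were called lower. It was at 78.4 and 75.3 RPM in the LLC pools and lower, at 61.3 and 56.6 RPM, in the LLC-Chem pools (log2 change -0.38, limma adjusted p = 0.0477), and 0 to 2 genes of its list were called lower over other scalings, pseudocounts, models and the stricter filter.

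Few of the other mitophagy genes were called. Of 20 tested receptors and machinery genes, 1 was called higher and 1 lower, where 9.54% and 13.5% of all genes tested were. In both LLC-Chem pools 8 were higher and 5 lower, where 33.1% and 39.3% of all genes tested were, and the median log2 fold change was 0.05. Gabarapl1, an ATG8 protein of the autophagosome, was at 62.6 and 66.2 RPM in the LLC pools and at 83.9 and 83.7 RPM in the LLC-Chem pools (log2 change 0.38, limma adjusted p = 0.0438). Nlrx1, a mitochondrial protein, was at 8.45 and 14.0 RPM in the LLC pools and at 5.55 and 3.30 RPM in the LLC-Chem pools (log2 change -1.25, limma adjusted p = 0.0487). Over the same alternatives 0 to 3 genes of this list were called higher and 0 to 1 lower. Park2 was below a mean of 1 RPM, and Calcoco2 was listed at 0 in all 4 pools. Of 4 genes of MCL1 turnover limma called 0, where 9.54% of all genes tested were called higher and 13.5% lower. For so few genes a count of 0 cannot be told apart from these shares. An unadjusted p under 0.05 was found for 1 of the 4, and both edgeR and DESeq2 also called 0 of them.

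**Figure D5:**
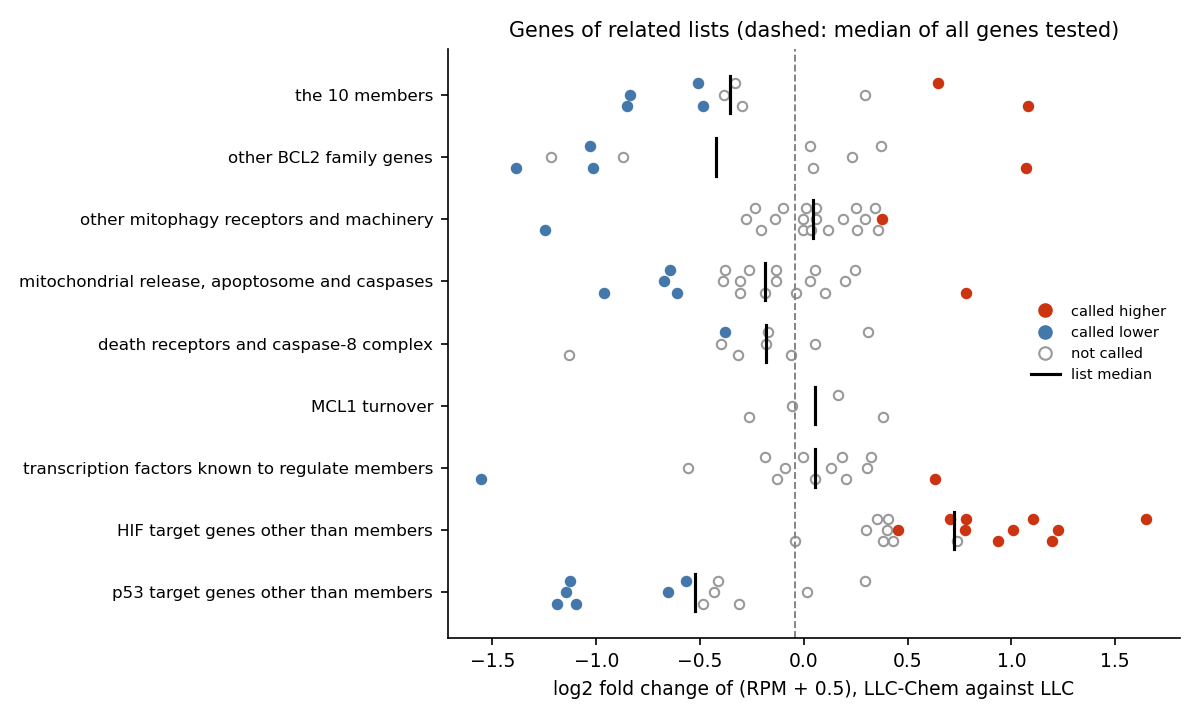
Log2 fold change of (RPM + 0.5) in LLC-Chem against LLC tumors (horizontal axis) for each tested gene of the 10 members and 8 related lists. Red marks were called higher, blue marks lower and open grey marks were not called, black bars are list medians, and the dashed line is the median of all genes tested. HIF targets lie to the right, with a median of 0.72, and p53 targets to the left, with a median of -0.53.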

How the data were processed

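RNA was profiled from 4 pools of 3 tumors, with 2 pools per group, as described by the study. The sample labels and the matching column names gave the group and the replicate number. The authors mapped paired-end reads with STAR to GRCm38.p4 with the Ensembl 84 annotation, counted them on genes with HTSeq (versions not given in the sources used here) and deposited RPM, that is, counts scaled to the size of the library. All nonzero values (100%) were whole multiples of 1 step, within 0.05 of a step, and the steps were best fitted as counts scaled to 20000000 and rounded up. Reads were recovered from them for count tests. A floor of 3 reads amounts to 0.0883 to 0.105 RPM at these totals and covers counting error only.

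LLC-Chem was compared with LLC by limma 3.58.1 under R 4.3.3 (two-sided, with lmFit and trended eBayes) on log2(RPM + 0.5) of the 13694 genes whose mean reached 1 RPM, with Benjamini-Hochberg adjustment over all of them, because RPM are not counts. The pseudocount shrinks the fold change of weakly expressed genes. The alternatives were pseudocounts of 0.1 and 1, TMM and median-of-ratios scaling, no filter or a mean of at least 5 RPM, the replicate number as a block, no trend, edgeR 4.0.16 and DESeq2 1.42.0 on recovered reads, and leaving out each pool. The crossed block was added after the data were seen. The scripts were tested on simulated data. Coordinates, exon lengths and overlaps come from GENCODE M21 (GRCm38), where 98.9% of the identifiers were found, and promoters are from RefSeq. Python 3.11.15, pandas 2.3.3 and matplotlib 3.10.9 were used for summaries and plots. The genes and lists were chosen with earlier results of these data known. Named genes were the 10 members, Rarres2, the tested genes of the wider family, and of each further list the 3 called genes with the largest change whose pools did not overlap, with exceptions named as such. Of these, 1 gene is not reported here. No gene of like pattern was sought, since 4 pools do not allow it.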

Additional observations from a re-analysis of the deposited data

How the results depend on the processing

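The 10 genes kept their direction in 150 of 150 alternative values, but most of these could not have changed it. The filters, the replicate blocks and the fit without a trend left each fold change as it was. No pseudocount and no loss of 1 pool can reverse a gene with both LLC-Chem pools on 1 side of both LLC pools. Only the scalings, edgeR and DESeq2 could have reversed a direction. Leaving aside single pools, 98 of 110 stayed on the same side of the threshold, 11 calls were lost and 1 was gained. With every gene above 0 in at least 1 pool, limma called 1 gene higher and 0 lower in the whole table, and 0 of the 10 genes higher and 0 lower. At an unadjusted p under 0.05 the numbers were 3394 and 4003, and 3 and 6. The cause was not tested. Without a trend 1 of the 10 genes was lower. Leaving out each pool in turn gave between 0 and 0 calls in the table and among the 10 genes, with 998 to 2359 genes higher and 1580 to 2823 lower at an unadjusted p under 0.05. Such a fit has 1 pool in 1 group, which is assumed to vary like the other.

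The groups share replicate numbers, and the deviations of same-numbered pools correlated at -0.1405 over genes. With 2 pools per group, this value cannot tell whether same-numbered pools shared a batch or an experiment. With the replicate block limma called 549 genes higher and 1064 lower, and 2 of the 10 genes lower, with Mcl1 and Bax lost (adjusted p = 0.0793 and 0.0615). Of the genes of mitochondrial release and caspases 0 were then higher and 1 lower (1 and 6 at an unadjusted p under 0.05). Crossing the numbers, a choice made once the data were seen, gave 1579 higher and 2320 lower calls, of which 2 and 5 were among the 10. Of the HIF targets 8 to 16 were called higher, and of the p53 targets 4 to 7 lower, over the scalings, pseudocounts, the stricter filter, no trend, edgeR and DESeq2.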
